A study of Arabidopsis thaliana with 18 samples.

Results

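The comparison was between the sperm cell (SC) nuclei and the vegetative cell (VC) nuclei of mature wild type (WT) pollen of Arabidopsis thaliana, across all gene functions. Its members were the 6 WT pollen RNA libraries, 3 of SC and 3 of VC, out of 18 libraries in the series; the other libraries came from late microspores and from pollen of V-Mt, a line with pLat52:REF6-GFP in place of the H2B fusion and an RFP-tagged histone driven by pHTR10. REF6 removes H3K27 methylation, and pLat52 is a promoter of the vegetative cell. Both cell types came from 1 line in the Col-0 background, grown under long days, which carried pACTIN11:H2B-GFP and pHTR10:HTR10-RFP. Nuclei were sorted by fluorescence, GFP for VC and RFP for SC, at uniform side scatter. Polyadenylated RNA from the sorted nuclei was amplified with SMART-Seq HT, so nuclear transcripts were measured. Reads of the HTR10 and H2B fusions cannot be told apart from those of the endogenous histone genes. The labels number the replicates but do not say if each number is a separate harvest. P-values below therefore reflect variation among the 12 pollen libraries of the fit alone, WT and V-Mt, part of which may be technical.

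Pollen of flowering plants is a pair of cells within a cell. The vegetative cell leaves the cell cycle early and grows the pollen tube by tip growth, which needs directed secretion, an actin array, calcium signalling and new wall. The sperm cells, the products of the generative cell, sit inside it and are carried to the ovule, where their surface proteins drive adhesion and fusion with egg and central cell. The MYB factor DUO1 switches on much of the sperm program, while MIKC* MADS box factors act in the vegetative cell.

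Values are FPKM (fragments counted on a gene model, divided by its length in kilobases and by the library's total), and log2 fold changes are of FPKM + 1, SC over VC, which understates the change of low genes. An estimated 9100000 to 14000000 fragments lay behind each SC library and 17000000 to 24000000 behind each VC library. At 1 FPKM or more stood 12271 ± 417 genes in SC and 8231 ± 147 in VC (SD, n = 3 each). The 10 highest genes took 16.5%, 14.9% and 22.7% of FPKM in SC replicates 1 to 3, against 9.47%, 13.5% and 12.7% in VC replicates 1 to 3. WT SC replicate 3 lay nearer to VC (rank correlation across genes up to 0.753) than SC replicates 1 and 2 did (up to 0.668 and 0.633), though nearer still to SC replicate 1 (0.815). Chloroplast and mitochondrial genes took 0.0432%, 0.0731% and 0.000737% of FPKM in SC replicates 1 to 3, against 0.000263% to 0.000958% in VC. A gene was called where limma gave a Benjamini-Hochberg adjusted p under 0.05 over all tested genes. Of the 5390 genes called higher in SC, 53.5% had their lowest SC value in replicate 3, and of the 2591 called lower, 54.4% had their highest SC value there; the part of that library in these results is given by leaving it out.

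The labelled cell types matched their markers. The sperm markers were high in SC: DUO1 (AT3G60460) had 267, 80.9 and 97.4 FPKM in SC, against 0.28, 1.74 and 1.48 in VC. HAP2 (AT4G11720), the fusogen of sperm with egg, was at 173, 195 and 160.3 FPKM in SC, against 0.23, 2.68 and 2.19 in VC. The vegetative receptor kinases BUPS1 (AT4G39110) and ANX1 (AT3G04690), which keep the pollen tube wall intact, were lower in SC (359, 306 and 235 FPKM in SC, against 854, 812 and 812 in VC for BUPS1, and 8.85, 2.31 and 19.6 FPKM in SC, against 104.1, 113 and 114 in VC for ANX1). The pollen tube receptor kinase PRK6 (AT5G20690), for an ovule attractant, was lower as well, at 3.53, 7.37 and 18.7 FPKM in SC, against 190.5, 119 and 124 in VC. MGH3 (AT1G19890), the sperm histone H3 also named HTR10, was at 6676, 7589.5 and 3777 FPKM in SC, against 61.1, 42.7 and 35.3 in VC; its fusion served in the sort, so it is no separate check. None of these 6 genes overlapped between groups. ANX1 shares 278 bases on the opposite strand with TPR10, a gene also lower in SC (means of 17.1 FPKM in SC and 77.3 in VC). Genes high in one cell type were also read in the other, most of them at a low share of that level. Over the 103 genes called higher in SC with a mean of at least 1000 FPKM there, the VC level was a median of 1.73% of the SC level (quartiles 1.45% and 6.10%, highest 66.5%), and the median was 1.70%, 2.08% and 1.62% in VC replicates 1 to 3. Over the 132 genes called lower in SC with a mean of at least 1000 FPKM in VC, the SC level was a median of 11.9% of the VC level (quartiles 8.24% and 20.0%, highest 63.5%), with medians of 10.6%, 10.7% and 14.4% in SC replicates 1 to 3. Whether these low levels come from RNA of the other nuclei in the sort was not tested.

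Lists of other cell types were checked in the same way. Their counts are read beside the 27.3% higher and 13.1% lower of all tested genes. Of 12 tested genes of tapetum and anther wall, 4 were called lower in SC, the tapetum regulators DYT1, TDF1, AMS and MYB80, with AMS the highest of them in VC, at 0, 0 and 0.75 FPKM in SC, against 7.22, 3.92 and 4.52 in VC. One was higher, TPD1 (AT4G24972), a small secreted protein that specifies the tapetum, at 74.8, 104.4 and 122.8 FPKM in SC, against 0, 1.43 and 0.68 in VC. The list summed to 77.5, 106 and 130.3 FPKM in SC and to 23.6, 20.7 and 16.3 FPKM in VC, nearly all of it TPD1 in SC, and 5 members, among them ACOS5, A6 and A7, were listed at 0 in all 6 libraries. Without WT SC replicate 2 the list had 2 higher and 3 lower. Of 16 photosynthesis genes, 4 were higher (25%, near the share of all tested genes) and 0 lower. The list summed to 839 to 1212 FPKM in SC and 20.6 to 25.3 FPKM in VC. Most of that was RBCS3B (AT5G38410), a Rubisco small subunit gene with near-identical paralogs, at 699, 845 and 1160 FPKM in SC, against 13.7, 14.4 and 15.2 in VC. The chlorophyll a/b binding protein gene CAB1 stood at 27.6, 5.31 and 0.24 FPKM in SC, against 0, 0.27 and 0.34 in VC, and LHCB2.1 was listed at 0 in all 6. Egg and central cell genes had 0 of 3 tested called in either direction by limma and summed to 0 to 4.69 FPKM in SC and 5.12 to 11.9 FPKM in VC; EC1.4, EC1.5 and AGL61 were listed at 0 in all 6.

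**Figure D1:**
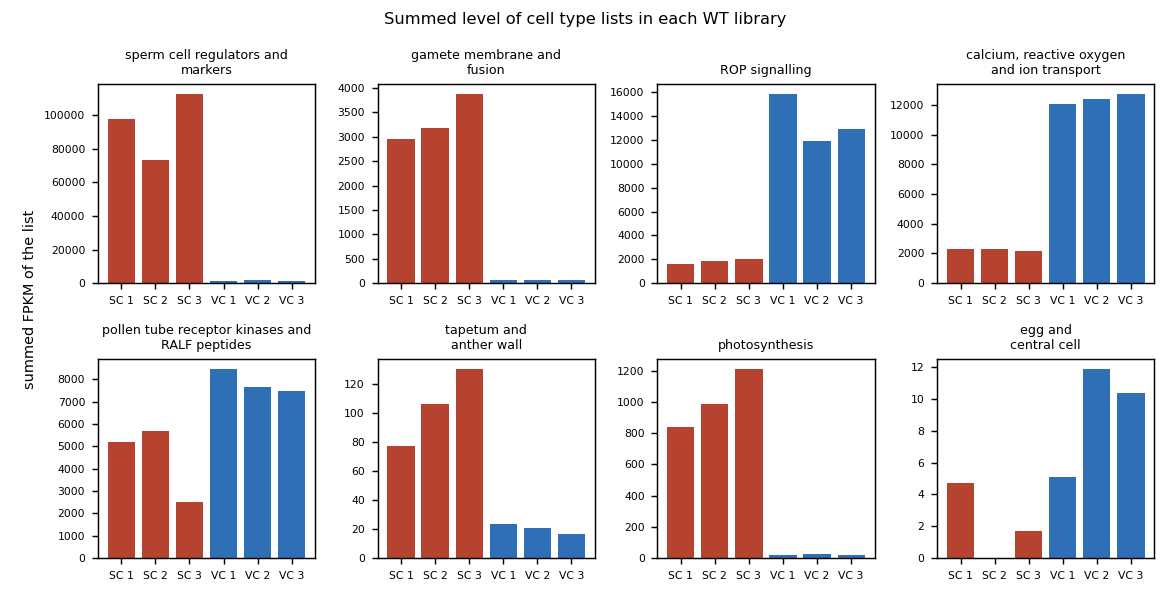
Summed FPKM of 8 gene lists in each library, SC replicates in red left of VC replicates in blue; each panel has its own linear axis from 0. The sperm lists stand high in SC, the ROP and calcium lists in VC, the receptor list is between 2527 and 5695 in SC and between 7467 and 8467 in VC, and the tapetum and egg cell lists are low in both.

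More genes passed the fixed FPKM cuts in SC than in VC, and the largest log2 fold changes were mostly rises in SC. Of 19733 genes tested, 40.4% were called, 27.3% higher and 13.1% lower in SC. Among called genes, 4352 were higher and 1620 lower by a log2 fold change of 2 or more, 1622 and 190 by 4 or more, and 194 and 3 by 6 or more. At 5 FPKM or more in all 3 libraries stood 5829 genes in SC and 4749 in VC, and 3249 did so in all 6. Summed FPKM was larger in every SC library than in any VC library, so a fixed cut is a smaller share of the total in SC. The part of this, and of VC-high genes being read in SC, in the counts of genes passing a cut was not tested. A near on/off pattern ran mostly 1 way: 598 genes stood at 5 FPKM or more in every SC library and under 0.5 FPKM in every VC library, against 21 with the reverse pattern. The cut of 0.5 FPKM is harder to meet in SC if low genes resemble those of at least 1000 FPKM. There, VC-high genes were read in SC at a median of 11.9%, and SC-high genes in VC at 1.73%. The part of this in the 2 counts was not tested. Without WT SC replicate 3, 5884 genes were higher and 2439 lower. The median of all genes was 0.36, and 0.08 with median-ratio scaling or −0.06 with quantile normalization, under which 4438 higher and 3966 lower or 3815 higher and 4514 lower were called; changes below are read against that shift. In these bulk libraries, each scaled to its own total, fewer nuclei with a transcript and less of it per nucleus cannot be told apart, nor can a change in total RNA be seen.

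**Figure D2:**
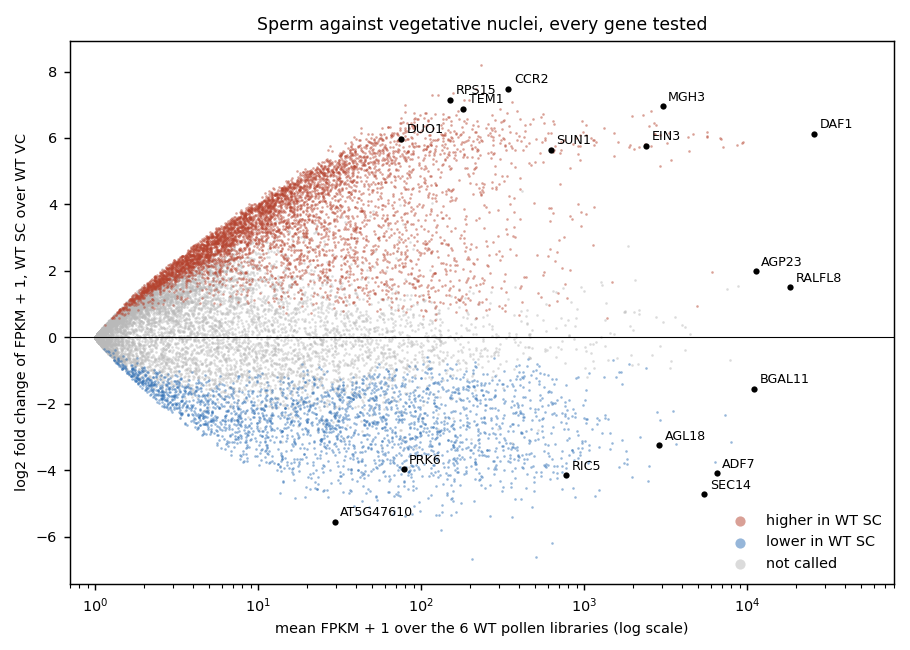
Log2 fold change of FPKM + 1, SC over VC, against the mean FPKM + 1 of the 6 libraries (log axis), a point per tested gene, with calls in red (higher in SC) and blue (lower) and some named genes in black. The sperm-high genes of high level, such as DAF1, EIN3 and SUN1, gather near a log2 fold change of 6, while the lower genes spread widely, down to RABA1H at −6.66.

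The same contrast was made in V-Mt pollen from other libraries. Of the 5390 genes higher in WT SC, it called 36.5% higher and 31.2% lower in V-Mt SC than in V-Mt VC; of all tested genes it called 13.4% higher and 58.0% lower. Of the 2591 genes lower in WT SC, 10.3% were higher and 55.3% lower in V-Mt SC. Of 2628 tested gene models with no AGI locus, 151 were higher and 212 lower, and of 17095 nuclear AGI loci 5234 were higher and 2378 lower. The median transcript length was 1657 bases in genes called higher, 1946.5 bases in genes called lower and 1662 bases in all tested genes. In 4 classes of transcript length of nearly equal size, short to long, 8.70%, 11.2%, 15.8% and 19.8% of genes were lower in SC, while 29.9%, 31.7%, 30.1% and 31.0% were higher.

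Upstream sequences of genes with a matching site are shown here because the sperm program is tied to a known factor. DUO1 binds a MYB site, searched as AACCGC or AACCGT on either strand in the 250 bases before each annotated transcript start (RefSeq, TAIR10.1). Of 11 promoters in the sperm regulator and marker list, 9 held it (81.8%), and of 8 in the gamete membrane and fusion list, 5 did, against 11.6% of tested genes and 10.4% of all 27443 promoters. The sperm regulator list holds genes under DUO1, such as DAF1 and DAZ3, so its high share is partly built into the choice of list. Both lists were written with earlier results of these data known. Which genes of the gamete list are under DUO1 was not checked, so its share is no separate support. Among genes called higher in SC by a log2 fold change of at least 4 the share was 17.7%, and among those called lower by as much it was 7.88%. A match is a description of letters, not a shown site, and none of the motifs searched contains another. The last 120 bases before the start follow for 7 sperm genes, on the gene's strand, with the sites in capitals.
DUO1, chr3:22343577-22343696, minus strand: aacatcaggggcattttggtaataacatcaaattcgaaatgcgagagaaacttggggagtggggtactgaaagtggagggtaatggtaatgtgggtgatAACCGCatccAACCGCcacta
MGH3, chr1:6904843-6904962, plus strand: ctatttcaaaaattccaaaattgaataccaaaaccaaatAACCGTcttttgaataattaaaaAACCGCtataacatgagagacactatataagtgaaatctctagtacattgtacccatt
DAZ3, chr4:16923199-16923318, plus strand: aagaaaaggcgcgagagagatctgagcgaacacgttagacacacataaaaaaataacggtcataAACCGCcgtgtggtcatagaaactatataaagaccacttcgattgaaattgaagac
DAF1, chr3:23031411-23031530, plus strand: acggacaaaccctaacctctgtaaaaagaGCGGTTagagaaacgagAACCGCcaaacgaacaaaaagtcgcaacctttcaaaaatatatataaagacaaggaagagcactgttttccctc
HAP2, chr4:7063135-7063254, plus strand: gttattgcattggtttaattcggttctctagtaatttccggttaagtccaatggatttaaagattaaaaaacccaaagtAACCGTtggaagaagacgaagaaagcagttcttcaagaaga
TET11, chr1:6374786-6374905, plus strand: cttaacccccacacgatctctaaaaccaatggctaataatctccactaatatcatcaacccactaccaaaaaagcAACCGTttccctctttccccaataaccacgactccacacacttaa
DMP9, chr5:15875005-15875124, plus strand: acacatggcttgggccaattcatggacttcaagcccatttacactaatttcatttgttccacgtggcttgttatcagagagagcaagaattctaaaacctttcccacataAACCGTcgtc

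In MGH3 the sites began 81 and 58 bases before the start, in DAZ3 56, in TET11 45 and in HAP2 41 bases before it, while DUO1 itself held a pair, 21 and 11 bases before its start. DAF1 had its pair in opposite directions, 91 and 74 bases upstream. E2F factors, which drive S phase genes, bind TTCCCGC. On either strand these letters were in 11 of 23 promoters of the DNA replication list (47.8%), against 1.37% of tested genes, 1.21% of all promoters, 1.78% of those of genes called higher and 1.90% of those of genes called lower. Examples lay close to the start in the following 4 genes.
MCM2, chr1:16970094-16970213, plus strand: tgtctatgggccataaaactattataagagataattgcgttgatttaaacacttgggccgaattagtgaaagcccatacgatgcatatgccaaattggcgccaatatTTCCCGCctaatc
MCM5, chr2:3527501-3527620, minus strand: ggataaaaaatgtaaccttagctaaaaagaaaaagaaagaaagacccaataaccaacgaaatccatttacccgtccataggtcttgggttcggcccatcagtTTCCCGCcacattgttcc
CDT1A, chr2:13328742-13328861, plus strand: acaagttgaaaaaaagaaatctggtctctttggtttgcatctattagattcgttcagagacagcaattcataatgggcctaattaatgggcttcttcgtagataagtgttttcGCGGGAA
ORC2, chr2:15758481-15758600, plus strand: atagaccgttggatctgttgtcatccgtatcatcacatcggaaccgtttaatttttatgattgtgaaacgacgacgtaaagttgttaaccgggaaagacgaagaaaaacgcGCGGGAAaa

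Site II elements (TGGGCC or TGGGCT, either strand) were in 58.4% of 305 promoters of ribosomal protein genes and in 29.9% of genes called higher, 19.5% of genes called lower, 24.5% of all tested genes and 19.2% of all promoters. The telo box AAACCCT was in 20.0% of the ribosomal promoters, against 7.71% of tested genes and 7.33% of all. The LAT52 pollen element AGAAA, a short run of letters, was in 80.2% of called-higher, 83.4% of called-lower and 82.5% of all promoters, and the W box (TTGACC or TTGACT) in 26.8%, 28.8% and 28.4%.

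The highest transcripts of sperm nuclei were led by DAF1 (AT3G62230, chr3:23031531-23033146, plus strand), an F-box gene activated by DUO1, at 59134, 34764 and 58331 FPKM in SC, against 549, 930.2 and 677 in VC. In that top 10, 7 genes, DAF1 and CYCD7;1 included, stood in VC at 1.42% to 1.77% of their SC level. The uncharacterized genes AT1G75870, AT1G34095 and AT4G14315 were among them, with 18394 ± 11437 FPKM in SC and 302 ± 116 in VC for AT1G75870 (SD, n = 3 each). AT4G21895 (chr4:11613225-11615063, minus strand), annotated as a DNA-binding protein, was the second highest called gene, at 11419, 12561 and 31917 FPKM in SC, against 183, 421 and 293 in VC. AT5G15030, a paired amphipathic helix protein related to the corepressor Sin3, had 5568, 6452 and 30006 FPKM in SC, against 60.2, 388 and 297 in VC; replicate 3 was far above the other SC libraries. The genes of the top 10 that were high in both cells were RALFL8 (AT1G61563), a RALF peptide gene, AGP23 (AT3G57690), an arabinogalactan protein gene, and AT2G41905. RALFL8 was at 32034, 35264 and 14891 FPKM in SC, against 5898, 13219.5 and 9318 in VC; its groups did not overlap but the difference did not pass (log2 fold change 1.51, SE 0.59, adjusted p = 0.0629).

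The highest transcripts of vegetative nuclei were of several kinds. BGAL11 (AT4G35010, chr4:16667837-16672188, minus strand), a beta-galactosidase expressed in pollen, stood at 6979, 7114 and 3449.9 FPKM in SC, against 15828, 17358 and 15421 in VC (log2 fold change −1.54, SE 0.26, adjusted p = 6.99e-04). ADF7 (AT4G25590, chr4:13058936-13060250, minus strand), an actin depolymerizing factor of pollen, had 539.6, 339.6 and 1719 FPKM in SC, against 7180.4, 14257 and 14963 in VC (log2 fold change −4.08, SE 0.64, adjusted p = 4.57e-04). SEC14 (AT4G39180, chr4:18243726-18248805, minus strand), a phosphatidylinositol transfer protein, had the largest fall of the 10, at 233, 246 and 1039 FPKM in SC, against 8462, 11361 and 11474 in VC (log2 fold change −4.72, SE 0.76, adjusted p = 5.71e-04). In these 3 genes no SC library reached a VC library. Others of the top 10 that fell were AGL18 (AT3G57390), a MADS box factor (−3.25), AT1G66260, an RNA-binding protein of the mRNA export adaptor type (−3.74), AT5G19473, of the RIN4 family (−2.33), AT5G12950 (−3.21) and the lipid-binding protein gene AT3G54800 (−2.2). TPX2 (AT1G65970), which here is thioredoxin-dependent peroxidase 2, overlapped between groups (6284, 6794 and 4251 FPKM in SC, against 4936, 13987 and 10514 in VC, log2 fold change −0.67, SE 0.47, adjusted p = 0.3).

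The 12 largest rises in SC came from genes of several kinds. TEM1 (AT1G25560, chr1:8981556-8983314, minus strand), an AP2/B3 factor that represses flowering in leaves, was at 344, 444 and 289 FPKM in SC, against 0.20, 3.99 and 3.49 in VC (log2 fold change 6.89, SE 0.47, adjusted p = 9.82e-07). AT1G65370 (chr1:24284469-24286347, minus strand), a TRAF-like protein gene, stood at 253, 412 and 92.9 FPKM in SC, against 0.15, 0.70 and 0.33 in VC. AT5G39470, an F-box gene, had 376, 634 and 83.5 FPKM in SC, against 0.99, 1.11 and 0.66 in VC. RPS15 (AT1G04270, chr1:1141558-1143130, minus strand), a protein of the small ribosomal subunit, was at 296, 562 and 43 FPKM in SC, against 0.96, 0.11 and 0.16 in VC (log2 fold change 7.16, SE 0.74, adjusted p = 2.34e-05). All SC libraries lay above all VC libraries in these genes, as the choice of the 12 required. In 11 of the 12 largest rises replicate 3 was the lowest SC library. The low temperature and salt responsive gene AT2G38905 stood at 772, 609 and 39.4 FPKM in SC, against 1.57, 0 and 0.65 in VC. AT2G07671, annotated as ATP synthase subunit C on chromosome 2, where a long insertion of mitochondrial DNA lies, had 453, 833 and 17.1 FPKM in SC, against 0, 0 and 0.21 in VC, an order of libraries that the organelle share shows too; the part of mitochondrial reads in it was not tested. NOA1 (AT3G47450), a plastid GTPase gene at 256, 256 and 177 FPKM in SC, against 0.14, 0.030 and 1.56 in VC, overlaps the end of TIP5;1, itself higher in SC, by 91 bases on the opposite strand, and the files do not say whether reads were counted by strand. The rest of the 12 were MGH3, the cyclophilin gene ROC3, the RNA-binding protein gene CCR2, the heat shock gene HSP17.4 and AT5G28380.

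The 12 largest falls in SC included a pair of genes of S-adenosylmethionine decarboxylase, an enzyme of polyamine synthesis. SAMDC (AT3G02470, chr3:508886-511561, plus strand) was at 4.7, 2.52 and 145 FPKM in SC, against 298, 894 and 820.4 in VC (log2 fold change −5.4, SE 1.34, adjusted p = 0.00819). AT5G15950 stood at 26.7, 0 and 165 FPKM in SC, against 1112, 1244 and 1262 in VC (log2 fold change −6.18, SE 1.82, adjusted p = 0.0192). The call of SAMDC was lost under 1 of 15 alternatives and that of AT5G15950 under 5. AT5G47610 (chr5:19301130-19302117, minus strand), a RING-type ubiquitin ligase gene, was nearly off in SC, at 0, 0 and 0.80 FPKM in SC, against 72.8, 49.4 and 47.9 in VC (log2 fold change −5.54, SE 0.81, adjusted p = 2.86e-04). NUDT17 (AT2G01670, chr2:296365-298215, minus strand), a nudix hydrolase, had 1.91, 10.7 and 49.4 FPKM in SC, against 377, 570.4 and 569 in VC. AT1G11770, an FAD-linked oxidase of the berberine bridge family, stood at 0.19, 4.18 and 55.9 FPKM in SC, against 287, 277 and 284 in VC. GRF3 (AT2G36400), a growth-regulating transcription factor, had 0.34, 1.36 and 19.5 FPKM in SC, against 103, 194 and 200.5 in VC. PnsB1 (AT1G15980), a subunit of the chloroplast NDH complex, was at 1.85, 0 and 7.22 FPKM in SC, against 229, 78.4 and 79.8 in VC. No SC library reached a VC library in any of them, as the choice of the 12 required. In 11 of these 12 falls replicate 3 was the highest SC library. Among the 12 were also the GTPase genes RABA1H and ARLA1B and the uncharacterized genes AT3G07273 and AT2G11851. PnsB1 overlaps CNGC7, and AT1G11770 overlaps AT1G11780, by 231 and 541 bases on the opposite strand, and both of those neighbours were lower in SC.

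The gene lists that follow were written with earlier results of these data known; their counts describe the lists and are read beside the 27.3% higher and 13.1% lower of all tested genes. From each list, up to 2 called members each way were picked for naming among those without overlap between groups. For them a lack of overlap, where stated below, was set by that choice. Of all 19733 tested genes, 6441 had groups without overlap and higher in SC, and 3221 without overlap and lower.

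**Figure D3:**
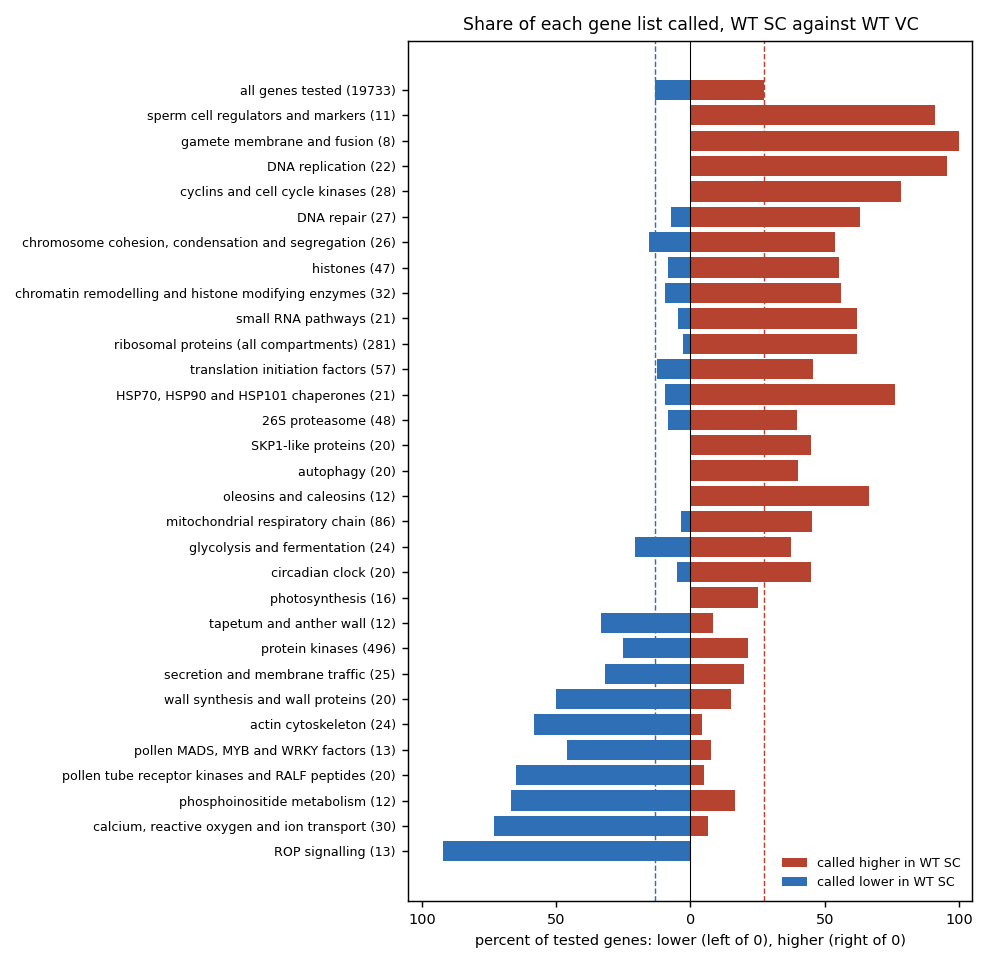
Share of tested genes called higher (red, right) and lower (blue, left) in SC for all genes and for 30 lists, with the number tested in brackets; dashed lines mark the shares of all genes. Sperm, replication, cell cycle and ribosomal lists lie to the right, and ROP, calcium, phosphoinositide, receptor and actin lists to the left.

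Fusion and surface proteins of sperm were higher in SC throughout: of 8 tested, 8 were higher and 0 lower, with a median log2 fold change of 6.0, and the counts were 8 higher and 0 lower without WT SC replicate 3. DMP9 (AT5G39650, chr5:15875125-15876116, plus strand), a membrane protein that, with DMP8, supports gamete fusion, stood at 947, 911 and 1032 FPKM in SC, against 5.85, 13.8 and 9.32 in VC (log2 fold change 6.57, SE 0.28, adjusted p = 5.92e-08). The tetraspanin TET11 (AT1G18520, chr1:6374906-6376333, plus strand), a sperm surface protein, had 565, 607 and 308 FPKM in SC, against 9.36, 3.03 and 4.05 in VC (log2 fold change 6.32, SE 0.37, adjusted p = 3.44e-07). The SC values of each lay above every VC value by more than an order of magnitude. Among sperm regulators, DAZ3 (AT4G35700), a zinc finger gene under DUO1, was at 8734, 8173 and 16825 FPKM in SC, against 133, 200.1 and 159.6 in VC (log2 fold change 6.03, SE 0.27, adjusted p = 7.75e-08).

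Genes of DNA replication were nearly all higher in SC: of 22 tested, 21 were higher and 0 lower (median 3.76; 19 higher and 0 lower with median-ratio scaling, 17 higher and 0 lower with quantile normalization). ORC6 (AT1G26840, chr1:9298670-9300800, plus strand), a subunit of the origin recognition complex, stood at 3019, 2439 and 6377 FPKM in SC, against 44, 104.8 and 75.7 in VC (log2 fold change 5.66, SE 0.39, adjusted p = 1.08e-06), while ORC1B and ORC3, the lowest and highest of the other ORC genes in SC, had 8.48, 7.56 and 14.2 FPKM in SC, against 0.25, 0.18 and 0.28 in VC for ORC1B, and 29.5, 53.5 and 64.4 FPKM in SC, against 0.090, 0.82 and 0.90 in VC for ORC3. CDT1A (AT2G31270, chr2:13328862-13331831, plus strand), which loads the replicative helicase onto origins, was at 228, 279 and 363 FPKM in SC, against 5.98, 8.02 and 7.19 in VC (log2 fold change 5.15, SE 0.25, adjusted p = 1.14e-07). All 3 SC libraries were above all VC libraries in both, and CDT1A also has the E2F letters shown above. MCM6, a helicase subunit, was the tested member that did not pass, at 0.17, 0.22 and 3.99 FPKM in SC, against 0, 0 and 0 in VC.

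Cell cycle genes followed: of 28 tested, 22 were higher and 0 lower (median 4.01). CDKB1;2 (AT2G38620, chr2:16152473-16154086, plus strand), a plant kinase of the G2 to M transition, stood at 433, 876 and 579 FPKM in SC, against 12.5, 8.72 and 5.36 in VC (log2 fold change 6.0, SE 0.37, adjusted p = 5.36e-07). Every SC library was over 30-fold above every VC library. In chromosome cohesion, condensation and segregation the list split: of 26 genes, 14 were higher and 4 lower. AUR3 (AT2G45490), an Aurora kinase of the centromere, had 149, 83.4 and 164 FPKM in SC, against 1.28, 2.4 and 2.39 in VC. SYN3 (AT3G59550), a kleisin subunit of cohesin, was at 133, 144 and 153 FPKM in SC, against 5.94, 2.51 and 1.61 in VC. In the other direction CDC20.1 (AT4G33270), an activator of the anaphase-promoting complex, stood at 58.4, 27.4 and 95.5 FPKM in SC, against 286, 725 and 685 in VC, and the cohesin subunit SYN4 (AT5G16270) fell by 1.62 on the log2 scale. Kinesins were divided as well: of 33 tested, 18 were higher and 7 lower. The mitotic kinesin ATK1 (AT4G21270) had 78.3, 52.8 and 6.41 FPKM in SC, against 0, 0 and 0 in VC. AT3G51150, another kinesin motor gene, was at 57.2, 59.1 and 75.9 FPKM in SC, against 1024, 633 and 651 in VC (log2 fold change −3.54, SE 0.30, adjusted p = 5.75e-06). No gene named here overlapped between groups.

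DNA repair genes were mostly higher: of 27 tested, 17 were higher and 2 lower (median 2.12). BRCA1 (AT4G21070), a repair scaffold, had 66, 47.7 and 61.9 FPKM in SC, against 0.21, 1.32 and 0.67 in VC (log2 fold change 5.14, SE 0.31, adjusted p = 4.05e-07). RAD54 (AT3G19210), a DNA translocase of homologous recombination, was lower, at 3.29, 7.16 and 5.29 FPKM in SC, against 21.9, 29.2 and 30.7 in VC. Neither gene overlapped between groups. The lower count was 1 without WT SC replicate 2 or without any single VC replicate.

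Chromatin genes behaved less uniformly. Of 47 tested genes annotated as histones, 26 were higher and 4 lower (median 2.65). HTA6 (AT5G59870, chr5:24115354-24116220, minus strand), an H2A histone of the W class, was at 258, 345 and 28.8 FPKM in SC, against 0.60, 0.24 and 0.090 in VC, replicate 3 far below the others (log2 fold change 6.75, SE 0.74, adjusted p = 3.63e-05). H2B genes are close paralogs and one of them feeds the GFP fusion; HTB2 stood at 219, 150.2 and 71 FPKM in SC, against 0, 0.39 and 1.61 in VC, HTB4 at 76.5, 27.6 and 7.79 FPKM in SC, against 2.11, 3.46 and 4.69 in VC, and HTB9 at 57.2, 54 and 6.51 FPKM in SC, against 0, 0 and 0 in VC. HTB11 overlapped between groups (31.2, 0.23 and 2.34 FPKM in SC, against 0, 9.49 and 9.89 in VC) and its direction turned under 5 of 15 alternatives. Lower in SC were AT5G10980, an H3.3 gene, at 344, 291 and 281 FPKM in SC, against 745, 749 and 768 in VC (log2 fold change −1.31, SE 0.36, adjusted p = 0.0134), and AT3G07565, which is annotated as an H2A deubiquitinase rather than a histone (−2.9). Of 32 chromatin remodelling and histone modifying enzymes, 18 were higher and 3 lower (median 1.13), but 10 higher and 9 lower with median-ratio scaling and 5 higher and 10 lower with quantile normalization, where the median was −0.06. ATXR6 (AT5G24330, chr5:8295110-8297159, minus strand), which adds H3K27 monomethylation during replication, had 95.6, 98.6 and 124 FPKM in SC, against 0, 1.22 and 1.51 in VC (log2 fold change 5.91, SE 0.54, adjusted p = 9.20e-06). PKL (AT2G25170), a CHD3 remodeller, was at 75.2, 50.7 and 28.8 FPKM in SC, against 2.62, 2.34 and 1.77 in VC. SEF (AT5G37055), a subunit of the SWR1 remodeller that deposits H2A.Z, fell, at 175, 100 and 223 FPKM in SC, against 1738, 1766 and 1653 in VC (log2 fold change −3.44). These 3 kept their direction under all 15 alternatives.

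Argonaute genes split by member. Of 21 small RNA pathway genes, 13 were higher and 1 lower (median 1.3); the single lower one was AGO8, often regarded as a pseudogene, at 0, 0 and 1.38 FPKM in SC, against 6.77, 4.26 and 3.47 in VC, which did not pass without WT SC replicate 1, WT SC replicate 2, WT VC replicate 1 or WT VC replicate 2. AGO5 (AT2G27880, chr2:11871378-11876989, plus strand), an Argonaute of the germline, stood at 159.9, 143 and 66.6 FPKM in SC, against 0.20, 0.76 and 0.44 in VC (log2 fold change 6.32, SE 0.36, adjusted p = 2.79e-07). AGO9 (AT5G21150, chr5:7192239-7198381, plus strand), which silences transposons in gametic tissue, had 206, 198 and 269 FPKM in SC, against 3.19, 3.2 and 2.62 in VC (log2 fold change 5.8, SE 0.22, adjusted p = 3.42e-08). Without WT VC replicate 1 or 2, 9 genes were higher. Of 16 DNA methylation genes, 9 were higher and 0 lower. DRM3 (AT3G17310), a catalytically inactive partner in RNA-directed methylation, was at 352, 326 and 318 FPKM in SC, against 0.36, 3.02 and 3.63 in VC (log2 fold change 6.82, SE 0.41, adjusted p = 4.25e-07). Of 24 genes annotated as transposable element proteins tested, 3 were higher and 2 lower. AT3G21000, a Gag-Pol related gene, stood at 208, 206 and 282 FPKM in SC, against 0.47, 4.13 and 2.35 in VC. AT2G41590, a LINE-like gene, had 7.1, 0.42 and 38.5 FPKM in SC, against 242, 259 and 255 in VC.

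Ribosomal protein genes were mostly higher in sperm nuclei. Of 281 tested genes annotated as ribosomal proteins of any compartment, 174 were higher and 8 lower (median 3.05); with median-ratio scaling 160 higher and 20 lower, with quantile normalization 151 higher and 17 lower, and without WT SC replicate 3 186 higher and 7 lower. In 145 of the 174 higher genes replicate 3 was the lowest SC library. Ribosomal proteins come in near-identical paralogs, between which reads may have been split. Besides RPS15, AT2G27720, an acidic protein of the ribosomal stalk, was at 247, 206 and 79.3 FPKM in SC, against 0, 1.29 and 0.47 in VC (log2 fold change 6.74, SE 0.44, adjusted p = 7.15e-07). AT1G54217, of the L18ae family, was lower, at 3.78, 3.0 and 13.8 FPKM in SC, against 83.5, 126 and 115 in VC. Of 57 initiation factor genes, 26 were higher and 7 lower. EIF4E (AT4G18040), the cap-binding protein, was at 64.8, 136 and 26.8 FPKM in SC, against 0.93, 0.080 and 0.060 in VC (log2 fold change 5.6, SE 0.79, adjusted p = 2.27e-04). AT5G54940, a SUI1 family factor, ran the other way at 169, 167 and 256 FPKM in SC, against 1361, 1169 and 1386 in VC (log2 fold change −2.74). The lower count was 4 without WT VC replicate 1 or 3.

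Large chaperones, which guard proteins against heat and stress, were mostly higher in SC. Of 21 genes of HSP70, HSP90 and HSP101 type, 16 were higher and 2 lower (median 3.46). HSP70 (AT3G12580, chr3:3991117-3993886, minus strand) stood at 367, 297 and 114 FPKM in SC, against 4.0, 1.77 and 1.72 in VC (log2 fold change 6.12, SE 0.45, adjusted p = 1.77e-06) and its relative Hsp70-2 (AT5G02490) at 421, 399 and 26 FPKM in SC, against 1.95, 3.4 and 3.4 in VC, in both with replicate 3 the lowest. Of the 2 lower genes, AT1G11660 is an HSP70 relative (−3.23) and DMS11 (AT1G19100) an ATPase of the MORC family that acts in silencing (−2.26). The plastid chaperone cpHsc70-2 averaged 1107 ± 668 FPKM in SC and 1154 ± 654 in VC (SD, n = 3 each) and did not pass. Of 32 genes of small heat shock and HSP20 proteins, 11 were higher and 1 lower (median 0.99, 0.30 with quantile normalization). HSP17.6A (AT5G12030), a small heat shock protein gene, had 359, 427 and 117 FPKM in SC, against 0.28, 5.14 and 2.07 in VC. AT1G76770, also of the HSP20 class, averaged 13.3 ± 3.46 FPKM in SC and 118 ± 41.9 in VC (SD, n = 3 each). The called genes named here kept their direction under all 15 alternatives.

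Protein turnover genes were divided. Of 48 proteasome genes, 19 were higher and 4 lower; the lower count was 2 without WT SC replicate 1, WT SC replicate 3 or WT VC replicate 1, and scaling shifted the balance to 15 higher and 9 lower (median-ratio) or 11 higher and 11 lower (quantile). PA200 (AT3G13330, chr3:4319490-4330218, minus strand), a proteasome activator, stood at 149, 191 and 60.6 FPKM in SC, against 1.72, 4.9 and 4.87 in VC (log2 fold change 4.73, SE 0.43, adjusted p = 9.41e-06), and the core subunit PAF1 (AT5G42790) at 55.2, 29.8 and 25.8 FPKM in SC, against 0, 0.29 and 0.86 in VC. AT1G53780, a regulatory ATPase, had 10, 13.6 and 17.3 FPKM in SC, against 64.5, 93.6 and 99.3 in VC (log2 fold change −2.57, SE 0.50, adjusted p = 0.00187). Of 20 SKP1-like adaptors of SCF ubiquitin ligases tested, 9 were higher and 0 lower, with SK18 (AT1G10230) at 538, 476 and 624 FPKM in SC, against 19.2, 17.8 and 14.7 in VC (log2 fold change 4.91, SE 0.19, adjusted p = 3.56e-08). Of 340 F-box genes tested, whose products bring targets to SCF, 90 were higher and 26 lower, or 26.5% and 7.65%, beside 27.3% and 13.1% of all genes; without WT VC replicate 2 or 3 the lower count was 16. Of 34 ubiquitin-conjugating enzymes, 10 were higher and 7 lower. UBC20 (AT1G50490) was at 571, 708 and 552 FPKM in SC, against 9.02, 10.13 and 7.63 in VC (log2 fold change 5.94). UBC9 (AT4G27960) stood at 149.9, 129.7 and 379.7 FPKM in SC, against 1884, 3879 and 3424 in VC (log2 fold change −3.9). Each of those genes kept its groups apart. Of 20 autophagy genes tested, 8 were higher and 0 lower (median 1.13, 0.00 and 7 higher and 3 lower with median-ratio scaling, and 2 lower without WT SC replicate 2). ATG8C (AT1G62040), a ubiquitin-like protein of the autophagosome membrane, had 214, 293 and 156 FPKM in SC, against 2.36, 3.26 and 5.07 in VC (log2 fold change 5.6).

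RNA handling and the nuclear envelope had members at opposite ends. Of 91 splicing factor genes, 38 were higher and 6 lower. SUS2 (AT1G80070), the PRP8 core protein of the spliceosome, was at 99.5, 98.9 and 39.3 FPKM in SC, against 0.090, 0.59 and 0.61 in VC (log2 fold change 5.72, SE 0.36, adjusted p = 5.63e-07). ATU2AF65A (AT4G36690), the large U2AF subunit that reads the 3′ splice site, stood at 359, 366 and 815 FPKM in SC, against 2844, 4304 and 4518 in VC (log2 fold change −3.0, SE 0.53, adjusted p = 0.00105). Of 124 RRM proteins tested, 41 were higher and 20 lower, turning to 31 higher and 39 lower with quantile normalization. AT1G05970 had 149, 318 and 75.5 FPKM in SC, against 0.40, 0.74 and 0.65 in VC. AT4G17720 was at 8.94, 15.8 and 43.3 FPKM in SC, against 436, 281 and 308 in VC. Of 19 genes of nuclear pore and lamina, 7 were higher and 3 lower. SUN1 (AT5G04990, chr5:1471481-1474029, minus strand), an inner membrane protein linking nucleus and cytoskeleton, stood at 1107, 1503 and 1048 FPKM in SC, against 27.4, 24.2 and 18.6 in VC (log2 fold change 5.64, SE 0.22, adjusted p = 3.64e-08). LINC1 (AT1G67230), a plant lamina protein, had 111, 79.8 and 16.2 FPKM in SC, against 1.49, 1.17 and 1.19 in VC. NUA (AT1G79280), a nucleoporin of the pore basket, was at 31.3, 23.8 and 27.2 FPKM in SC, against 263, 128 and 141 in VC (log2 fold change −2.58). EMB2766 (AT2G45000), another nucleoporin, stood at 11.8, 1.53 and 15 FPKM in SC, against 49.1, 69.3 and 71.5 in VC. NUA overlaps a gene on the opposite strand that is higher in SC, by 709 bases.

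**Figure D4:**
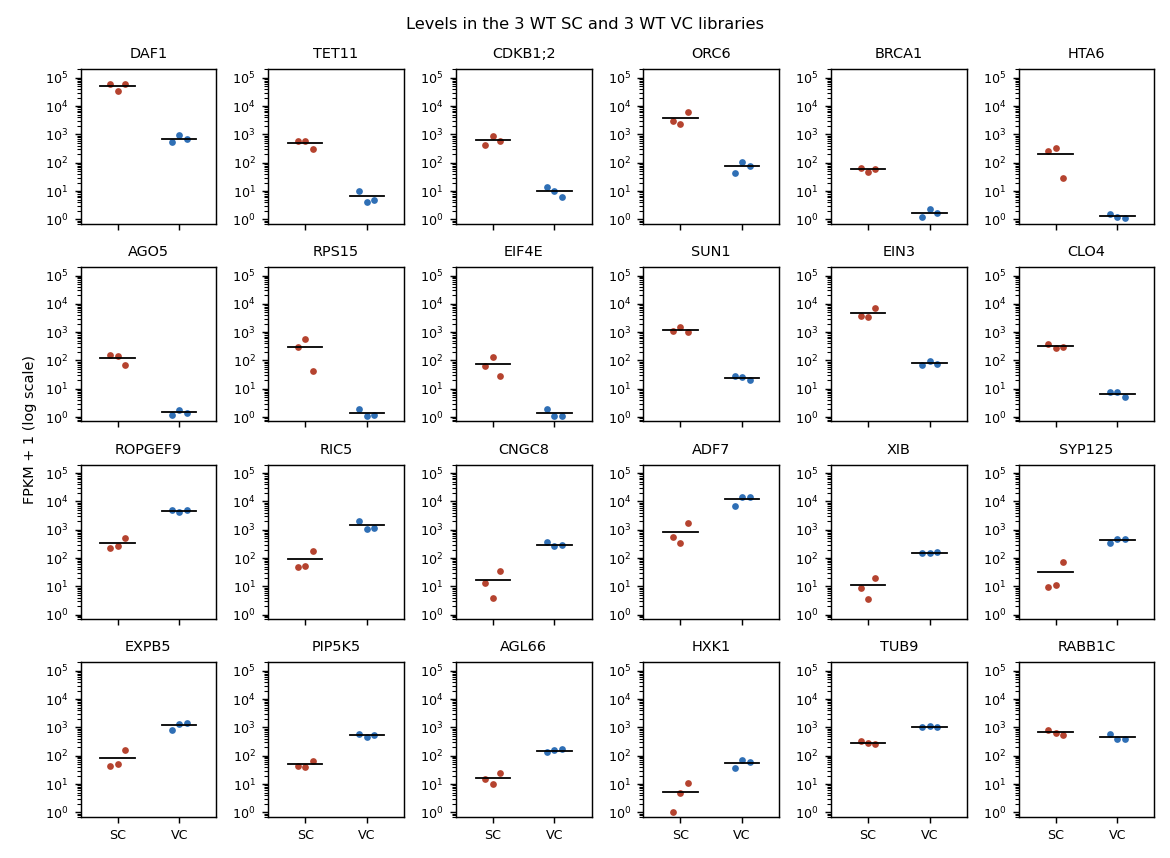
FPKM + 1 (log axis) of 24 named genes in the 3 SC libraries (red, left) and the 3 VC libraries (blue, right), with a bar at the mean. The 12 genes of the upper rows are higher in SC, the next 11 are lower in SC, and RABB1C is at a like level in both.

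Tip growth genes ran the other way. ROP GTPases are the switch that sets the growing tip: of 13 genes of ROP signalling, 0 were higher and 12 lower (median −2.61; 0 higher and 12 lower without WT SC replicate 3; 0 higher and 13 lower with median-ratio scaling). ROPGEF9 (AT4G13240, chr4:7679950-7682622, plus strand), an activator of ROPs, had 229.5, 272 and 525 FPKM in SC, against 4988, 4144 and 4901 in VC (log2 fold change −3.86, SE 0.50, adjusted p = 1.18e-04). RIC5 (AT3G23380, chr3:8373375-8375098, plus strand), a ROP effector, was at 47.2, 52.8 and 182 FPKM in SC, against 2084, 1092 and 1171 in VC (log2 fold change −4.15, SE 0.57, adjusted p = 1.86e-04). Every SC library lay below every VC library in both. ROP1 itself, a GTPase of the growing tip, averaged 211 ± 14.8 FPKM in SC and 1056 ± 26.1 in VC (SD, n = 3 each) and fell by 2.32 on the log2 scale. The list summed to 1573 to 2025 FPKM in SC and 11915 to 15878 FPKM in VC.

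The tip also depends on calcium, reactive oxygen and ion transport: of 30 such genes tested, 2 were higher and 22 lower (median −2.54). CNGC8 (AT1G19780, chr1:6833669-6836633, minus strand), a cyclic nucleotide gated channel of the pollen tube, stood at 11.7, 2.92 and 33 FPKM in SC, against 355, 257 and 281 in VC (log2 fold change −4.63, SE 0.69, adjusted p = 3.39e-04). AT3G45810, a respiratory burst oxidase relative, had 7.49, 5.48 and 24.1 FPKM in SC, against 119.9, 172 and 199 in VC (log2 fold change −3.86, SE 0.81, adjusted p = 0.00325). No SC value reached a VC value. The 2 higher genes were the proton pump gene HA9, at 36.8, 51.2 and 5.34 FPKM in SC, against 6.56, 1.68 and 1.57 in VC, and the potassium channel gene TPK4 (AT1G02510), at 0.76, 2.81 and 8.42 FPKM in SC, against 0, 0.060 and 0 in VC. TPK4 was not called under 8 of 15 alternatives; leaving out single libraries gave 0 or 1 higher genes, whichever of the 6 was left out, and 21 to 24 lower ones. Of 12 phosphoinositide genes tested, which mark membrane at the tip, 2 were higher and 8 lower. PIP5K5 (AT2G41210, chr2:17173374-17176866, plus strand), a kinase that makes PI(4,5)P2, was at 41.3, 39.9 and 64.3 FPKM in SC, against 577.6, 465 and 520.1 in VC (log2 fold change −3.43, SE 0.39, adjusted p = 5.22e-05). PLC2 (AT3G08510), a phospholipase C, was higher at 76.8, 103 and 42.8 FPKM in SC, against 36.2, 24 and 24.5 in VC (log2 fold change 1.3), and PIP5K10 (AT4G01190) too, at 0.96, 18.9 and 14 FPKM in SC, against 0.22, 0.060 and 0.36 in VC, each not called under 4 of 15 alternatives. Without WT SC replicate 2 the counts were 1 higher and 7 lower, and without WT SC replicate 3 they were 1 higher and 6 lower.

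Of 20 receptor kinases and RALF peptides of the pollen tube tested, 1 was higher and 13 lower. PRK3 (AT3G42880), a pollen receptor kinase, stood at 24.7, 6.44 and 45 FPKM in SC, against 211, 315 and 328 in VC (log2 fold change −3.76, SE 1.1, adjusted p = 0.0191). MIK1 (AT4G28650), a receptor kinase for an ovule attractant, was the higher member at 8.93, 10.7 and 5.66 FPKM in SC, against 1.44, 2.47 and 2.53 in VC, not called under 8 of 15 alternatives and turned to −0.13 by quantile normalization; it was not called without WT SC replicate 1, WT SC replicate 2 or any VC replicate. Of 496 annotated protein kinases of any function, 107 were higher and 124 lower, or 21.6% and 25%, beside 27.3% and 13.1% of all genes. Median-ratio scaling gave 86 higher and 160 lower and quantile normalization 60 higher and 175 lower. The median log2 fold change of these kinases was 0.12, and −0.95 with the filter on WT libraries. NP3 (AT3G06030), a mitogen-activated kinase kinase kinase of the NPK1 type, had 287, 121 and 122.9 FPKM in SC, against 0.13, 1.82 and 0.97 in VC (log2 fold change 6.47, SE 0.46, adjusted p = 1.32e-06). AT1G74320, annotated as a kinase superfamily protein, was at 32.5, 35.2 and 159 FPKM in SC, against 958, 1557 and 1664 in VC (log2 fold change −4.55, SE 0.86, adjusted p = 0.00171).

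Actin genes were mostly lower in SC, while membrane traffic genes had members in both directions. Of 24 actin cytoskeleton genes, 1 was higher and 14 lower (median −1.59). XIB (AT1G04160, chr1:1086170-1096510, plus strand), a myosin XI motor, stood at 7.85, 2.63 and 19.6 FPKM in SC, against 148, 152 and 159.7 in VC (log2 fold change −4.14, SE 0.62, adjusted p = 3.52e-04), and the exception was PRF1 (AT2G19760), a profilin expressed in many tissues, at 156, 342 and 87.1 FPKM in SC, against 8.78, 17.9 and 15.6 in VC (log2 fold change 3.53, SE 0.72, adjusted p = 0.00252); without WT SC replicate 3 there were 2 higher and 13 lower. Actins and profilins are near-identical families in which reads may have been split. Of 25 secretion and membrane traffic genes, 5 were higher and 8 lower, or 5 higher and 16 lower with median-ratio scaling. SYP125 (AT1G11250, chr1:3768521-3770102, plus strand), a pollen syntaxin, had 8.66, 10.2 and 73.3 FPKM in SC, against 334, 487 and 484 in VC (log2 fold change −4.42, SE 0.92, adjusted p = 0.0029). CLC2 (AT2G40060), a clathrin light chain, was at 52.8, 57.7 and 28.3 FPKM in SC, against 0, 0.47 and 0.29 in VC (log2 fold change 5.19). Of 54 RAB GTPases tested, which label vesicles, 18 were higher and 9 lower, a balance that turned to 16 higher and 21 lower with median-ratio scaling. Within them RABA2c (AT3G46830, chr3:17246228-17248823, minus strand) stood at 1036, 897 and 1326 FPKM in SC, against 13.1, 21.9 and 17.8 in VC (log2 fold change 5.88). RABG3E (AT1G49300) had 551, 519 and 868 FPKM in SC, against 9.68, 13.5 and 12.3 in VC. RABA1i (AT1G28550) was at 44.7, 16.9 and 95 FPKM in SC, against 354, 477 and 530.5 in VC (log2 fold change −3.39). It overlaps AT1G28540 by 803 bases on the opposite strand, a gene also lower in SC (means of 82.0 FPKM in SC and 515 in VC). Of 16 tubulins tested, 4 were higher and 1 lower, 2 lower without WT SC replicate 2. TUB9 (AT4G20890), the pollen beta-tubulin, stood at 336, 290.3 and 251 FPKM in SC, against 1071, 1096 and 1064 in VC (log2 fold change −1.89). TUB7 (AT2G29550) had 387, 297 and 28.5 FPKM in SC, against 2.87, 11.3 and 8.86 in VC.

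Wall genes split by member. Of 20 genes of wall synthesis and wall proteins, 3 were higher and 10 lower. EXPB5 (AT3G60570, chr3:22391153-22392708, plus strand), a beta-expansin that loosens wall, was at 42.3, 50.9 and 156 FPKM in SC, against 794, 1339.8 and 1458 in VC (log2 fold change −4.03, SE 0.60, adjusted p = 3.18e-04). LRX10 (AT2G15880), a leucine-rich extensin that binds RALF peptides, stood at 26.5, 23.7 and 41.1 FPKM in SC, against 390.3, 239.7 and 193 in VC (log2 fold change −3.11, SE 0.37, adjusted p = 6.02e-05). AGP23 (AT3G57690) was higher in SC, at 21920.4, 24551 and 8539 FPKM in SC, against 3405, 5169 and 4074 in VC (log2 fold change 2.0, SE 0.54, adjusted p = 0.0121), and 3 of the 15 alternatives did not call it. Of 62 pectin methylesterases and their inhibitors tested, 7 were higher and 15 lower. AT5G27870 had 42.7, 34.5 and 143 FPKM in SC, against 1826, 1649.9 and 1575 in VC (log2 fold change −4.79). AT2G26440 was at 61.9, 108 and 290.4 FPKM in SC, against 0.77, 2.38 and 3.34 in VC (log2 fold change 5.41). Of 14 expansins tested, 2 were higher and 4 lower, with 4 higher without WT SC replicate 2. EXPA7 (AT1G12560), known from root hairs, stood at 64.5, 67.5 and 182 FPKM in SC, against 3.42, 2.17 and 2.73 in VC (log2 fold change 4.65), with every SC value above every VC value. Of 62 polygalacturonases and pectin lyases tested, which cut pectin, 14 were higher and 15 lower. AT3G17060 had 199, 111 and 355 FPKM in SC, against 1126, 2120.4 and 2192 in VC. AT1G80140 was at 77.3, 97.8 and 78.2 FPKM in SC, against 1.48, 1.48 and 1.09 in VC.

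Carbon and lipid genes differed by isoenzyme. Of 24 genes of glycolysis and fermentation, 9 were higher and 5 lower (with quantile normalization 5 higher and 7 lower). Of 20 genes of sugar transport and sucrose metabolism, 6 were higher and 4 lower. For hexokinase, HXK1 (AT4G29130), the glucose sensor, stood at 0, 3.8 and 9.55 FPKM in SC, against 37.4, 68.4 and 59.5 in VC (log2 fold change −3.88, SE 0.74, adjusted p = 0.0018). HKL1 (AT1G50460), a hexokinase-like protein, had 42.9, 63 and 18.3 FPKM in SC, against 0, 0.12 and 0.19 in VC (log2 fold change 5.1, SE 0.56, adjusted p = 3.87e-05). For cell wall invertase, which splits sucrose outside the cell, cwINV4 (AT2G36190) was at 70.2, 50.3 and 30.6 FPKM in SC, against 0.040, 0.36 and 0.26 in VC (log2 fold change 5.33, SE 0.34, adjusted p = 6.75e-07). CWINV2 (AT3G52600) stood at 11.6, 18.5 and 22.1 FPKM in SC, against 63.4, 204 and 181 in VC (log2 fold change −2.91). The aldolase gene FBA4 (AT5G03690) had 11.4, 11.2 and 56.9 FPKM in SC, against 217, 418 and 409.7 in VC. SWEET8 (AT5G40260), a sugar exporter of microspores, was at 50.2, 28.5 and 16.9 FPKM in SC, against 0.62, 3.54 and 1.59 in VC. None of these overlapped between groups. Oleosins and caleosins coat lipid droplets: of 12 tested, 8 were higher and 0 lower, led by CLO4 (AT1G70670, chr1:26644565-26646200, plus strand) at 382, 269 and 300 FPKM in SC, against 6.44, 6.87 and 4.03 in VC (log2 fold change 5.56), while the triacylglycerol synthase gene TAG1 (AT2G19450) was lower at 29.6, 23.5 and 42.5 FPKM in SC, against 175, 224 and 237 in VC (log2 fold change −2.73). Of 86 nuclear genes of the mitochondrial respiratory chain tested, 39 were higher and 3 lower, with AT5G58005, a cytochrome c oxidase subunit, at 229.7, 395 and 167 FPKM in SC, against 7.7, 4.23 and 5.6 in VC (log2 fold change 5.21). SDH1-1 (AT5G66760), a subunit of succinate dehydrogenase, stood at 33.3, 12.5 and 17.6 FPKM in SC, against 42, 55.3 and 58.1 in VC. The lower count was 1 without WT SC replicate 2 or WT VC replicate 3.

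Transcription factor families had members in each cell. Of 13 pollen MADS, MYB and WRKY factors, 1 was higher and 6 lower, and 2 were higher without WT SC replicate 2. AGL66 (AT1G77980, chr1:29314841-29317186, minus strand), a MIKC* MADS factor, had 14.2, 9.15 and 23 FPKM in SC, against 131, 154 and 165 in VC (log2 fold change −3.28, SE 0.38, adjusted p = 5.91e-05), while WRKY2 (AT5G56270), which acts with WRKY34 in pollen development, was the higher one at 164, 250.4 and 248 FPKM in SC, against 82.7, 70 and 79.7 in VC (log2 fold change 1.48, SE 0.21, adjusted p = 2.85e-04). Among 38 bZIP factors, 7 were higher and 10 lower. BZIP34 (AT2G42380), needed for the pollen wall, was at 8.5, 5.23 and 25.6 FPKM in SC, against 87, 125 and 116 in VC (log2 fold change −3.23, SE 0.68, adjusted p = 0.00318). EEL (AT2G41070), a factor of seed maturation, stood at 32.3, 7.02 and 42.6 FPKM in SC, against 276, 288 and 286 in VC. It overlaps AT2G41060 by 817 bases on the same strand, a gene also lower in SC (means of 41.6 FPKM in SC and 402 in VC). Of 62 genes in the whole MADS box family, 11 were higher and 10 lower. AT3G12510 (chr3:3967058-3967822, plus strand) had 3166, 3695 and 6976 FPKM in SC, against 57.4, 100.7 and 74.8 in VC (log2 fold change 5.82). AGL77 (AT5G38740) was at 100.6, 104.03 and 152 FPKM in SC, against 0.21, 1.78 and 0.80 in VC; the groups stood apart in each. Of 56 NAC factors tested, 14 were higher and 0 lower, 4 lower with quantile normalization. AT1G60240 (chr1:22215168-22216329, minus strand) stood at 3699.6, 3425 and 5632 FPKM in SC, against 76.4, 84 and 70.3 in VC (log2 fold change 5.74). Of 42 WRKY factors tested, 11 were higher and 2 lower, 4 lower without WT SC replicate 3 or WT VC replicate 1, with WRKY41 (AT4G11070) at 163, 218 and 36.5 FPKM in SC, against 0.12, 0.75 and 0.91 in VC. WRKY4 (AT1G13960) had 0.47, 1.76 and 4.03 FPKM in SC, against 21.2, 15.9 and 18.7 in VC. WRKY4 overlaps AT1G13970, also lower in SC (means of 224 FPKM in SC and 582 in VC), by 70 bases on the opposite strand. WRKY41 overlaps 3xHMG-box1, also higher in SC, by 517 bases on the opposite strand. Of 114 homeobox factors tested, 23 were higher and 13 lower, 8 lower without any single VC replicate. ANL2 (AT4G00730), a homeodomain factor of the epidermis, was at 109.9, 66.5 and 188 FPKM in SC, against 3.18, 3.11 and 1.3 in VC (log2 fold change 5.04). LD (AT4G02560), of the flowering time pathway, stood at 24.6, 5.22 and 21.4 FPKM in SC, against 128, 91.4 and 95.8 in VC (log2 fold change −2.78).

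Hormone genes included a pair of transcription factors of ethylene signalling, both higher in SC. EIN3 (AT3G20770, chr3:7260429-7263384, minus strand) had 3618, 3365 and 7209.9 FPKM in SC, against 70.6, 97.9 and 75.8 in VC (log2 fold change 5.77, SE 0.27, adjusted p = 8.70e-08), and its paralog EIL1 (AT2G27050, chr2:11545656-11548293, plus strand) was at 1251, 1292 and 1699 FPKM in SC, against 24.7, 23.9 and 20.5 in VC (log2 fold change 5.87, SE 0.17, adjusted p = 1.29e-08). In both paralogs every SC library stood far above every VC library. Of 23 genes of hormone pathways other than auxin, 7 were higher and 1 lower, the lower one being ABI1 (AT4G26080), a phosphatase that holds abscisic acid signalling in check, at 0, 1.82 and 2.35 FPKM in SC, against 8.1, 11.6 and 11.5 in VC. Of 15 auxin genes, 5 were higher and 3 lower. AUX1 (AT2G38120), an auxin importer, was at 10.9, 18 and 16.8 FPKM in SC, against 0.34, 0 and 0 in VC (log2 fold change 3.85, SE 0.52, adjusted p = 1.73e-04). PIN8 (AT5G15100), a pollen auxin carrier of the endoplasmic reticulum, stood at 1.93, 2.18 and 9.98 FPKM in SC, against 23.6, 91.4 and 85.6 in VC (log2 fold change −3.64). Of 20 clock genes, 9 were higher and 1 lower; single libraries left out gave 6 to 10 higher and 0 to 2 lower, with 6 higher and 2 lower without WT SC replicate 1, 7 and 0 without WT SC replicate 2, 10 and 0 without WT SC replicate 3, and 6 and 0 without WT VC replicate 2 or 3. The lower gene was PRR7, a repressor within the clock, at 22.9, 10.8 and 7.66 FPKM in SC, against 21.9, 35.8 and 37.1 in VC. CCR1 (AT4G39260), the RNA-binding protein GRP8 under clock control, had 697, 729.6 and 406 FPKM in SC, against 10.8, 4.03 and 3.85 in VC (log2 fold change 6.49); the core oscillator genes CCA1, LHY and TOC1 did not pass.

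Transporters and secreted peptides were spread over both. Of 44 ABC transporters, 7 were higher and 9 lower: ABCG28 (AT5G60740), which keeps reactive oxygen at the tube tip, was at 12.7, 16.7 and 36.1 FPKM in SC, against 309.9, 287 and 284 in VC (log2 fold change −3.83, SE 0.45, adjusted p = 6.16e-05). ABCG25 (AT1G71960), an abscisic acid exporter, stood at 15.6, 12.2 and 21 FPKM in SC, against 0, 0.49 and 0.10 in VC (log2 fold change 3.84, SE 0.42, adjusted p = 3.74e-05). ABCG28 overlaps AT5G60730 by 86 bases on the opposite strand, a gene of higher level that was also lower in SC (means of 297 FPKM in SC and 3329 in VC). Of 51 defensin-like and cysteine-rich peptide genes tested, 0 were higher and 3 lower, and 5 higher without WT SC replicate 3. LCR3 (AT5G47175) was listed at 0 in all 3 SC libraries and stood at 23.4, 35.5 and 17.4 FPKM in VC. Of 40 lipid transfer protein genes, 11 were higher and 3 lower (7 higher without WT VC replicate 1). ACD11 (AT2G34690, chr2:14629986-14632082, plus strand), a sphingolipid transfer protein that restrains cell death, had 1458, 1181 and 2773 FPKM in SC, against 35.5, 41.6 and 30.1 in VC (log2 fold change 5.53, SE 0.30, adjusted p = 2.28e-07). AT4G14815 was at 0.36, 0 and 2.83 FPKM in SC, against 63.4, 31.2 and 30.1 in VC (log2 fold change −4.53). Of 52 late embryogenesis abundant proteins tested, which protect dry cells, 12 were higher and 4 lower. AT2G18340 stood at 155, 137 and 66.2 FPKM in SC, against 0.10, 1.62 and 0.84 in VC. UNE15 (AT4G13560) had 158, 103.7 and 137 FPKM in SC, against 622, 1129.5 and 1151 in VC (log2 fold change −2.82).

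Several further families had members in both directions. Of 242 RING and U-box proteins tested, mostly ubiquitin ligases, 65 were higher and 38 lower, against 43 higher and 50 lower with median-ratio scaling. AT1G14200 was at 651, 775 and 376 FPKM in SC, against 5.45, 3.27 and 3.29 in VC (log2 fold change 6.88, SE 0.30, adjusted p = 5.81e-08) and overlaps a neighbour higher in SC by 84 bases. Of 130 pentatricopeptide repeat proteins tested, which edit and process organelle RNA, 37 were higher and 10 lower. MEF8S (AT4G32450), an editing factor of mitochondria, stood at 5.05, 0.63 and 14.1 FPKM in SC, against 94.2, 152 and 161 in VC (log2 fold change −4.65, SE 1.11, adjusted p = 0.00649). Of 110 major facilitator and sugar transporters, 20 were higher and 21 lower; without WT VC replicate 2 the counts were 14 higher and 12 lower, and without WT VC replicate 3 they were 16 and 11. AT5G65000, a nucleotide sugar transporter, had 314, 261 and 387 FPKM in SC, against 3.3, 5.38 and 2.55 in VC. AT2G30460, of the same family, was at 3.82, 0.66 and 26 FPKM in SC, against 177, 173 and 198 in VC. Of 71 glutathione transferases and peroxidases tested, 15 were higher and 6 lower; the glutathione peroxidases diverged. GPX2 (AT2G31570) was at 38, 22.6 and 58.9 FPKM in SC, against 0, 0.48 and 0.070 in VC. GPX5 (AT3G63080) stood at 12.7, 0 and 5.24 FPKM in SC, against 115, 50.4 and 55.8 in VC. Of 13 Polycomb repressive complex 2 genes tested, 3 were higher and 1 lower, but 1 higher and 1 lower without WT SC replicate 1, 4 and 2 without WT SC replicate 2, and 1 higher and 5 lower with quantile normalization. FIE (AT3G20740), the WD40 subunit of that complex, had 15.3, 3.43 and 2.59 FPKM in SC, against 1.02, 0.40 and 0.55 in VC and was not called under 10 of 15 alternatives.

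Some abundant genes were at a like level in both nuclei. The count of genes with a small interval has no floor on level, so it can hold genes near 0 FPKM in both. In 3878 genes the 95% interval of the log2 fold change lay within 1 either side of 0. Of the 8 highest of these by mean level, HVA22J (AT2G36020, chr2:15123120-15125588, minus strand), a membrane-shaping protein of the HVA22 family, was at 816, 982 and 932.2 FPKM in SC, against 989.9, 1203 and 1132 in VC (log2 fold change −0.28, SE 0.16). FAH2 (AT4G20870, chr4:11174450-11176881, minus strand), a fatty acid hydroxylase, stood at 533, 568 and 769 FPKM in SC, against 589, 846 and 839.6 in VC (log2 fold change −0.28). RABB1C (AT4G17170, chr4:9644574-9646408, minus strand), a RAB GTPase of the Golgi, had 832, 638 and 523 FPKM in SC, against 579, 395 and 402 in VC (log2 fold change 0.53, −0.61 with median-ratio scaling). UBQ14, a ubiquitin gene with near-identical repeats, had a log2 fold change of −0.48. The kinase gene AT2G07180 (−0.05), the uncharacterized gene AT1G73510 (0.02) and AT3G14595 of the L18ae family (0.12) each changed sign under some alternatives, AT1G73510 to −1.12 and AT3G14595 to −1.03 with median-ratio scaling. Only AT1G66500, of the pre-mRNA cleavage complex, was itself called (log2 fold change 0.59, SE 0.17, adjusted p = 0.0166), and it turned to −0.55 with median-ratio scaling. FAH2 overlaps a neighbour lower in SC by 18 bases on the opposite strand.

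Isoform use was compared as the share of a locus's FPKM, which does not depend on scaling between libraries. Each locus had its AGI isoforms and, as 1 further class, all assembled models with no AGI isoform name, which took 34.3% to 38.4% of FPKM in SC and 38.2% to 44.0% in VC. Of 1171 loci tested, 49 (4.18%) had a class with an adjusted p under 0.05 and a difference of at least 20 percentage points. In 37 of these the class without a name was itself called, with the higher share in SC in 16 of them. In the other 12 only AGI isoforms were called, which does not show the class without a name to be unchanged. At the gene level 24 of the 49 loci were higher in SC, 6 lower and 19 not called. The number of loci was 185 without WT SC replicate 3, 34 without WT VC replicate 2, and 20 when the WT libraries were fitted alone.

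The largest shift was in PME31 (AT3G29090), a pectin methylesterase gene. Its isoform 1 made up 96.7%, 100.0% and 83.8% of the locus in SC, against 0%, 0% and 1.70% in VC (limma adjusted p = 7.31e-04), while the gene level did not pass. AT2G17190, a ubiquitin family gene next to DAZ1, ran the other way, with isoform 1 at 0%, 0% and 1.68% in SC, against 89.8%, 93.1% and 91.1% in VC. The autophagy gene APG8A (AT4G21980), also named ATG8A, had isoform 1 at 92.8%, 86.5% and 99.3% in SC, against 0%, 6.97% and 4.35% in VC (limma adjusted p = 3.93e-04), with 276 FPKM in SC and 246 FPKM in VC on average. Groups did not overlap in any of these 3. In BPC3 (AT1G68120), a GAGA-binding factor, isoform 1 made up 9.56%, 0% and 17.2% in SC, against 98.8%, 89.8% and 89.9% in VC. AT1G05240, a peroxidase, had isoform 1 at 100.0% in all 3 SC libraries and at 21.9%, 20.3% and 3.57% in VC, and its fit lacked 1 V-Mt library. AT5G25754, annotated as RNA polymerase I-associated factor PAF67, had isoform 1 at 84.8%, 95.3% and 42.9% in SC, against 0.383%, 0.375% and 0.176% in VC; its near-copy AT5G25757 was among the 49 as well, and reads may have been split between them. In each of the 6 loci with shares given here, the other class called was the pooled models with no AGI name, not another AGI isoform. In PME31 that class held 3.34%, 0% and 16.2% in SC, against 100%, 100% and 98.3% in VC.

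Some of the 12 loci where only AGI isoforms were called are given here, chosen after their values were seen. DGK5 (AT2G20900), a diacylglycerol kinase that makes phosphatidic acid, had isoform 2 at 96.0%, 86.7% and 82.2% in SC, against 32.2%, 30.8% and 34.4% in VC (limma adjusted p = 0.00339). CKA1 (AT5G67380), a catalytic subunit of casein kinase 2, had isoform 2 at 100.0%, 100.0% and 94.2% in SC, against 0%, 47.0% and 61.1% in VC. AT4G27480, a glycosyltransferase family gene, used isoform 1 for 69.1%, 53.4% and 77.9% in SC, against 0%, 0% and 4.32% in VC. The gene levels of DGK5 and CKA1 did not pass, and AT4G27480 was lower in SC.

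**Figure D5:**
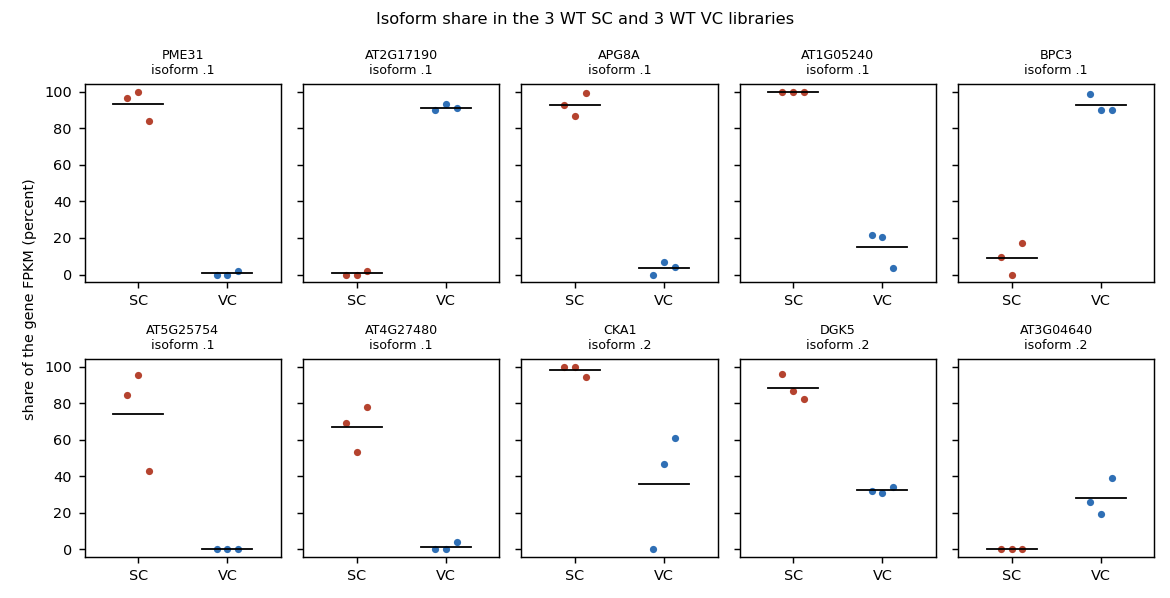
Share of the locus's FPKM (percent) held by 1 isoform in the 3 SC libraries (red, left) and 3 VC libraries (blue, right), with a bar at the mean, for 10 of the 49 loci. In every panel the SC and VC points stand apart. For BPC3 and AT2G17190 the isoform is the main one in VC. For AT3G04640 it is a minor one seen in VC alone, at 26.2%, 19.5% and 38.8%.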

How the data were processed

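RNA of sorted nuclei was sequenced in 18 libraries, of which the 12 pollen libraries (WT SC, WT VC, V-Mt SC and V-Mt VC, 3 each) entered the fit; the 6 microspore libraries were not used. The authors deposited gene and transcript tables in FPKM, with no counts and with gene models assembled beyond the annotation. RSEM 1.3.1, Bowtie2 2.3.5, StringTie 1.3.5 and HISAT2 2.1.0 are listed, with the build TAIR10, per the submitters' processing notes. The role of each tool and the use of strand in counting are not given there. Annotation, coordinates and promoters came from RefSeq TAIR10.1.

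A gene was tested if 3 of the 12 libraries or more had it at 1 FPKM or above. Tests were run on log2(FPKM + 1) with limma 3.58.1 in R 4.3.3, with a mean for each of 4 groups, a variance trend, and Benjamini-Hochberg adjustment over all 19733 genes at 0.05. V-Mt libraries thus add to the estimate of spread. Isoform shares were tested the same way at loci of at least 5 FPKM; transcripts with no AGI isoform name formed 1 class per locus. Depth was estimated from the smallest FPKM steps of transcripts of at least 1200 bases, at an assumed fragment length of 250 bases; it limits the precision of low genes.

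The genes described were the 12 largest rises and 12 largest falls without overlap at 5 FPKM or more. The 10 highest in each cell type were added, with up to 2 called members without overlap each way of each of 67 lists. Markers, H2B genes, the 8 highest genes with an interval within 1 of 0 and 6 isoform loci completed them. Others are named to spell out a count and were chosen after their values were seen. The comparison, members and lists were chosen with earlier results of these data known. Of 655 listed symbols 24 had no match. Of 320 described loci 103 overlap another annotated gene, so their reads may be shared. The 15 alternatives changed the pseudocount (0.1), the filter, the scaling (median ratio, quantile, TPM), the libraries or block in the fit, and the variance model, and left out each library. A few genes are not reported here.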

Additional observations from a re-analysis of the deposited data

How the results depend on the processing

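Across the 15 alternatives no gene called lower became higher; 2 called higher became lower with median-ratio scaling. The lower genes numbered 3966 when libraries were scaled by median ratios and 4514 under quantile normalization; 52.8% and 45.8% of calls were then higher ones, against 67.5%, and the cause was not tested. Leaving out single libraries gave 6589 to 8323 calls, 4486 to 5884 higher and 2103 to 2466 lower. The WT libraries fitted alone gave 6463 calls, 4185 higher and 2278 lower. Of 67 lists, 49 had more higher than lower calls, 28 with quantile normalization and 47 to 52 without single libraries. Isoform loci numbered 20 with the WT libraries alone (fewer samples), 185 without WT SC replicate 3, and 34 to 185 without single libraries. Same-numbered SC and VC libraries deviated together with correlations of 0.0781, −0.0644 and 0.145, so the numbers were not taken to pair samples; the replicate block gave 7807 genes, 5309 higher and 2498 lower, and 34 isoform loci. Single genes that changed sign were AT1G66500 (−0.55, median-ratio), RABB1C (−0.61, median-ratio), MIK1 (−0.13, quantile), AT1G73510 (−1.12 median-ratio, −0.38 TPM, −0.078 to 0.098 without single libraries, with −0.035 without WT SC replicate 3), AT2G07180 (0.13 quantile, −0.23 to 0.28 without single libraries, with 0.28 without WT VC replicate 1 and 0.17 without WT SC replicate 3), AT3G14595 (−1.03 median-ratio, −0.29 TPM, −0.14 to 0.58 without single libraries, with −0.14 without WT SC replicate 1, −0.098 without WT SC replicate 2 and 0.58, then called, without WT SC replicate 3) and HTB11 (−0.65 median-ratio, −0.67 quantile, −0.16 TPM, −1.26 to 1.1 without single libraries, with −1.26 without WT SC replicate 1 and −1.07 without WT VC replicate 1). The median of 22 lists changed sign with quantile normalization, 4 with median-ratio scaling, 6 with the filter on WT libraries and 1 without WT SC replicate 3. With an estimated 9100000 fragments in the shallowest library, genes near 1 FPKM rest on few reads.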
